A study of Mus musculus with 6 samples.

Results

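The subunits of the oxidative phosphorylation system were examined in the immortalized mouse fibroblast line NIH/3T3 after knockdown of Aldoa. Genes were taken by symbol alone (Nduf, Uqcr, Cox4 to Cox8, Atp5, Cyc1 and Cycs), and pseudogene symbols ending in -ps, with or without a number after it, were dropped. This left 75 of the 18001 genes in the expression table: 34 of complex I, 9 of complex III, 14 of complex IV, 15 of complex V, the electron carrier cytochrome c (Cycs), and Atp5s and Atp5sl, which carry the complex V name but are not subunits of it. Ndufa4 was counted with complex IV, where its protein resides. Genes of mitochondrial DNA, and Cox4i1 and Ndufa13 among the nuclear genes, were not analysed here, so no comparison of nuclear with mitochondrially encoded subunits was made.

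Both groups were grown in DMEM with 10% FCS and penicillin-streptomycin and were harvested 48 h after transfection. The siCtrl group received non-targeting siRNAs and the siAldoa group siRNAs against Aldoa, the glycolytic enzyme aldolase A, with 3 libraries of poly(A) RNA each. All libraries come from 1 cell line, and the p-values below rest on the spread between these libraries. In the main test the variance of each gene was also drawn towards that of genes at a like level.

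In oxidative phosphorylation, electrons from NADH enter at complex I and pass through coenzyme Q, complex III and cytochrome c to complex IV, where oxygen is reduced. The protons pumped by complexes I, III and IV flow back through the membrane ring of complex V, and this turns the central stalk that drives ATP synthesis in the F1 head. Most subunits are encoded in the nucleus, and proliferating fibroblasts obtain ATP from both this system and glycolysis. The promoters of nuclear subunit genes are known for binding sites of NRF1, of the ETS factor GABP and of YY1.

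The RefSeq promoter windows of 5 genes are shown because these genes carry the changes described below: Ndufb8 and Ndufa5 with the largest called decreases, Atp5g1 and Atp5g3 of the c-ring, and Cox7a2l with the only called increase. Each window runs 5′ to 3′ on the strand of the gene, from 250 bases before to 50 bases after the annotated start, in build GRCm38.p6. Capitals mark matches to the letters of 4 motifs, searched on both strands: NRF1 (GCGCA, any base, then GCGC), ETS (CCGGAAG), YY1 (AAGATGGC) and CRE (TGACGTCA). Ndufb8 lies at chr19:44555393-44555692, Ndufa5 at chr6:24527641-24527940, Atp5g1 at chr11:96075582-96075881, Atp5g3 at chr2:73911277-73911576 and Cox7a2l at chr17:83514284-83514583, all on the minus strand.
Ndufb8: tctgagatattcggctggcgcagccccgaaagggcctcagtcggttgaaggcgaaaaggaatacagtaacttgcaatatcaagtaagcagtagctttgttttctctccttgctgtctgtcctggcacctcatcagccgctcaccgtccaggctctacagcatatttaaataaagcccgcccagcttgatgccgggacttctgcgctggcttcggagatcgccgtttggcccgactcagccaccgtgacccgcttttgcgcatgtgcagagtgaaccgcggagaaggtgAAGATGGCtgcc
Ndufa5: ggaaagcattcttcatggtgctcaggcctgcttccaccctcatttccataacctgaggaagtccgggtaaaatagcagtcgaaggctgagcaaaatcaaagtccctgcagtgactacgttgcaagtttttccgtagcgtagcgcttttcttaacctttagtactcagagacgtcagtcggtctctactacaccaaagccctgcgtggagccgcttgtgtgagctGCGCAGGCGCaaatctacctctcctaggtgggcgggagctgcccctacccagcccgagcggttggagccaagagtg
Atp5g1: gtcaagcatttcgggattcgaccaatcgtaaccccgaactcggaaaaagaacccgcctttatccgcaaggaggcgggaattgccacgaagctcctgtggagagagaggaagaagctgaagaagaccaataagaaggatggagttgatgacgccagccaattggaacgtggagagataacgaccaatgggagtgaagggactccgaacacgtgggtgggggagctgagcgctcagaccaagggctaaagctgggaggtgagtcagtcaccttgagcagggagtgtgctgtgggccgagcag
Atp5g3: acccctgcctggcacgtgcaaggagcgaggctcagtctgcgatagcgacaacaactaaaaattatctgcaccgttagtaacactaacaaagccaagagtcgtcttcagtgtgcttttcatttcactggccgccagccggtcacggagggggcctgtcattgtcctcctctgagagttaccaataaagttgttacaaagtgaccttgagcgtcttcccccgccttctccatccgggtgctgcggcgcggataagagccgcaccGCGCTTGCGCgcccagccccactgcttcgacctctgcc
Cox7a2l: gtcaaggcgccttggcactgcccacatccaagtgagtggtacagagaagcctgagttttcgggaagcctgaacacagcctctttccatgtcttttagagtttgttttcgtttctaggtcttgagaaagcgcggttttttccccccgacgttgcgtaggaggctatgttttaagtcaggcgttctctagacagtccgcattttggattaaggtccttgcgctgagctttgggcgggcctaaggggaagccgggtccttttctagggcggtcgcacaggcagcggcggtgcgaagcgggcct

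The YY1 letters of Ndufb8 began 38 bases after the start, and the NRF1 letters of Atp5g3 12 bases after it. In Ndufa5 the NRF1 letters began 26 bases before the start of the window shown and 190 bases before a second annotated start. None of the 4 motifs was found in the windows of Atp5g1 and Cox7a2l. Windows were found for 64 of the 75 genes and for 27025 genes in all. NRF1 letters stood in 15 of the 64 (23.4%), against 10.1% of the 11618 expression table genes with a window, and YY1 letters in 11 (17.2%), against 4.73%. ETS letters stood in 14 (21.9%, against 17.9%) and CRE letters in 5 (7.81%, against 3.24%). Of 2 more motifs, not marked above, the Sp1 letters GGGCGG stood in 25 (39.1%, against 62.8%) and the E-box CACGTG in 7 (10.9%, against 11.03%). Among the 8 genes with a called decrease and a window, 3 held NRF1 letters, 2 ETS letters, 2 YY1 letters and none CRE letters. Of the same 8 genes, 4 held Sp1 letters and 2 the E-box. These shares describe letters in a window, and the gene was counted when any of its windows held them.

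The libraries held between 3692341 and 3771129 reads on genes. The deposited values are reads per gene scaled to an effective library size (CPM), that is, an adjusted total of reads. They summed to between 987420 and 1015223 per library, and 3 reads corresponded to 0.79 to 0.82 CPM. Aldoa fell from 522, 536 and 545 CPM in siCtrl to 62.9, 69.2 and 72.0 CPM in siAldoa, which is 12.7% of the control mean. In each group the counts of replicates 1 and 2 differed less from each other than either did from replicate 3 (chi-square per degree of freedom 1.12 and 1.11 against 2.07 to 3.24). Counting of reads alone gives a value near 1, so replicates 1 and 2 differed by little beyond it. The fibroblast markers Col1a1, Col1a2 and Vim were among the most abundant mRNAs in both groups. All 9 fibroblast markers were present, but most of them changed. In siAldoa 4 were called lower (44.4%, against 10.0% of all genes), among them Col1a1, Col1a2 and Vim. Another 4, Fn1, Thy1, Pdgfra and Pdgfrb, were called higher (44.4%, against 10.4%). The summed level of the 9 markers was 13107 to 13644 CPM in siCtrl and 10851 to 11523 CPM in siAldoa, or 83.2% of control. Of 14 markers of blood, epithelial, endothelial, muscle and neural cells, 8 were measured. Their summed level was 24.3 to 25.7 CPM in siCtrl and 19.5 to 27.8 CPM in siAldoa. Of these, Tnnt2 had 14.8 CPM in siCtrl and each other marker under 3 CPM. Krt8 was called lower at 1.35 against 0.36 CPM, with overlapping groups, and the call was lost in edgeR (adjusted p = 0.11) and in 7 of the 9 alternatives that left libraries out (adjusted p up to 0.46).

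Most genes of the system changed little, and those that passed the threshold were almost all lower in siAldoa. Groups were compared with limma on log2(CPM + 1), on which scale the fold changes of weakly expressed genes are understated, and a gene was called at an adjusted p-value under 0.05 over all 18001 genes. In all 11 of the 75 genes were called, against 20.4% of all genes in either direction. Of the 75 genes 10 were called lower (13.3%), against 10.0% of all genes, and 1 was called higher (1.33%), against 10.4% of all genes. Since calls are more frequent among well-expressed genes, the same shares were taken over genes with a mean of at least 10 CPM. There 14.1% of 71 subunit genes were lower, against 16.6% of 10059 genes, and 1.41% were higher, against 15.9%. The share of decreases was thus near the background and the share of increases below it. The decreases were modest: the genes called lower were at 72.7% to 91.3% of the control mean. In these bulk samples fewer cells with an mRNA and less of it per cell cannot be told apart.

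The median log2 fold change of the 75 genes was -0.063, beside -0.0023 over all genes. The quartiles were -0.17 and 0.04, beside -0.18 and 0.20 over all genes. Of the 75 genes 49 (65.3%) had a fold change below 0, against 50.4% of all genes. All 3 siAldoa libraries lay below all 3 siCtrl libraries for 19 genes (25.3%), against 17.1% of all genes, and above them for 3 genes (4%), against 16.7%. Among genes with a mean of at least 10 CPM, 26.8% of 71 subunit genes lay below, against 23.8% of 10059 genes. There 4.23% lay above, against 22.9%. The share of separated decreases was thus near the background at like expression, and that of separated increases below it. The summed CPM of the 75 genes was 8265, 8185 and 8351 in siCtrl and 7800, 7878 and 7934 in siAldoa. The groups did not overlap, and the siAldoa mean was 95.2% of the control mean, while the sum over all genes of the table was 98.4%. The latter depends on the scaling to effective library size, since the reads on genes were similar in both groups. Neither sum was taken under another scaling. Spike-in RNA was added at lysis for replicate 1 and after extraction for replicates 2 and 3. The median difference between same-numbered libraries was -0.083 in replicate 1, and -0.033 and -0.084 in replicates 2 and 3.

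**Figure D1:**
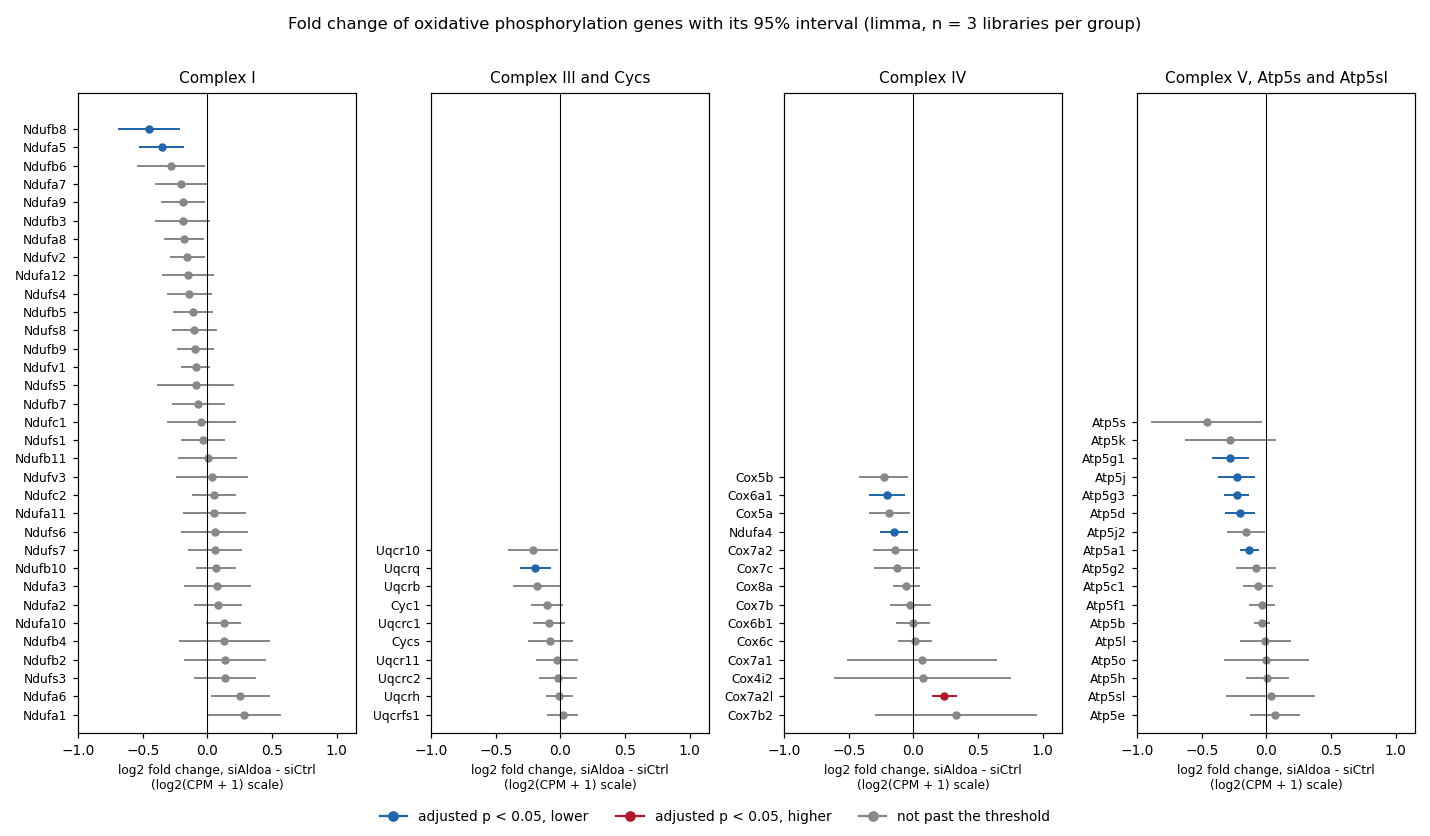
Each point is the log2 fold change (siAldoa minus siCtrl, log2(CPM + 1) scale) of a subunit gene and each line its 95% interval, in panels by complex. The 10 called decreases (blue) spread over all 4 complexes, with 5 in complex V, and Cox7a2l (red) is the only called increase.

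By complex, 5 of 15 genes were called lower in complex V, 2 of 34 in complex I, 1 of 9 in complex III and 2 of 14 in complex IV. These shares are 33.3%, 5.88%, 11.1% and 14.3%, against 10.0% of all genes and 16.6% of those with at least 10 CPM. The median log2 fold change was -0.08 for complex V, -0.04 for complex I, -0.09 for complex III and -0.04 for complex IV. Under quantile normalization these medians were -0.04, -0.06, -0.07 and -0.02, so the order of complexes I and V depended on the scaling. Summed CPM stood at 93.9% of control for complex V, 94.9% for complex III, 96.7% for complex I and 97.7% for complex IV. Differences between the complexes were not tested, and summed CPM is weighted towards the abundant genes. In complex V the F1 head and central stalk held 2936 of the 3991 CPM in siCtrl. Their abundant genes Atp5b and Atp5a1 had log2 fold changes of 0.09 and -0.04 under quantile normalization. The sums were not taken under that scaling, so how far they depend on it was not tested. The median of complex IV moved to -0.13 when genes of the lower quartile of mean CPM were left out, which removes 3 of its weakly expressed isoforms. The median of complex V moved to -0.16 among genes without a near-identical copy.

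The c-ring of complex V was the group of subunits with the lowest summed level relative to control. Its subunit c is encoded by 3 genes, Atp5g1, Atp5g2 and Atp5g3, which give the same mature protein. Their summed level was 494, 470 and 501 CPM in siCtrl and 409, 426 and 426 CPM in siAldoa, or 86.1% of control. Atp5g3 was measured at 326, 306 and 329 CPM in siCtrl and at 268, 274 and 277 CPM in siAldoa. The groups did not overlap, and Atp5g3 fell to 85.2% of control (log2 fold change -0.23, SE 0.04, limma adjusted p = 0.00031). Atp5g1 was measured at 87.1, 93.8 and 94.98 CPM in siCtrl and at 71.8, 78.6 and 76.5 CPM in siAldoa, again without overlap. It fell to 82.2% of control (log2 fold change -0.28, SE 0.07, limma adjusted p = 0.003). Atp5g2, with 80.0, 70.0 and 77.5 CPM in siCtrl and 68.8, 73.0 and 73.1 CPM in siAldoa, overlapped between the groups and did not pass the threshold (log2 fold change -0.08, SE 0.07, limma adjusted p = 0.49). The difference between Atp5g2 and its paralogs was not tested. Atp5g1 and Atp5g2 also have near-identical copies, treated below. Without replicates 2 or 3 of both groups Atp5g1 lost its call (adjusted p up to 0.12), and without replicates 1 or 3 Atp5g3 lost it (adjusted p up to 0.07).

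The F1 head, which holds the catalytic sites, and the central stalk contributed 1 called decrease each. Atp5a1 encodes the alpha subunit, which forms the hexamer of the head with the beta subunit. It was measured at 896, 887 and 887 CPM in siCtrl and at 812, 808 and 818 CPM in siAldoa. Its groups were tight and separate, at 91.3% of control (log2 fold change -0.13, SE 0.03, limma adjusted p = 0.003). Under quantile normalization the difference was -0.04 and not called (adjusted p = 0.54), and without replicates 1 or 2 of both groups it was not called (adjusted p up to 0.09). Atp5b, the catalytic beta subunit and the most abundant mRNA of the system, was measured at 1654, 1655 and 1634 CPM in siCtrl and at 1608, 1618 and 1606 CPM in siAldoa. Its groups did not overlap, but the difference was small and not called (log2 fold change -0.03, SE 0.03, limma adjusted p = 0.46), and under quantile normalization it had the other sign (0.09). Atp5d, the delta subunit of the central stalk, was measured at 173, 181 and 177 CPM in siCtrl and at 143, 159 and 159 CPM in siAldoa. It fell to 86.9% of control without overlap (log2 fold change -0.20, SE 0.05, limma adjusted p = 0.007), and the call was lost without siCtrl replicate 2 or siAldoa replicate 1 (adjusted p up to 0.13 with libraries left out). The gamma and epsilon subunit genes Atp5c1 and Atp5e had fold changes of -0.06 and 0.07 and were not called.

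Among the 7 genes of the peripheral stalk and the membrane part, Atp5j, which encodes coupling factor 6, was the only one called. It was measured at 92.0, 96.0 and 100.3 CPM in siCtrl and at 82.9, 85.3 and 77.2 CPM in siAldoa. The groups did not overlap, and Atp5j fell to 85.1% of control (log2 fold change -0.23, SE 0.06, limma adjusted p = 0.01). It lost the call without siCtrl replicate 3 or siAldoa replicate 3 (adjusted p up to 0.18 with libraries left out) and in DESeq2 (adjusted p = 0.07). The fold changes of the other 6 genes ranged from -0.28 for Atp5k, at 17.9 CPM in siCtrl, to 0.01 for Atp5h. Exons of Atp5a1, Atp5d and Atp5j overlap exons of Haus1, Cbarp and Gabpa on the opposite strand by 129, 68 and 397 bases. The library kit marks strand, but its use in counting is not given in the sources used here, so reads in these overlaps cannot be assigned. Atp5s, a factor outside the complex, stood at 71.9% of control with overlapping groups and was not called (limma adjusted p = 0.12), although it was called without siAldoa replicate 1. Atp5sl was at 104% of control and not called.

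**Figure D2:**
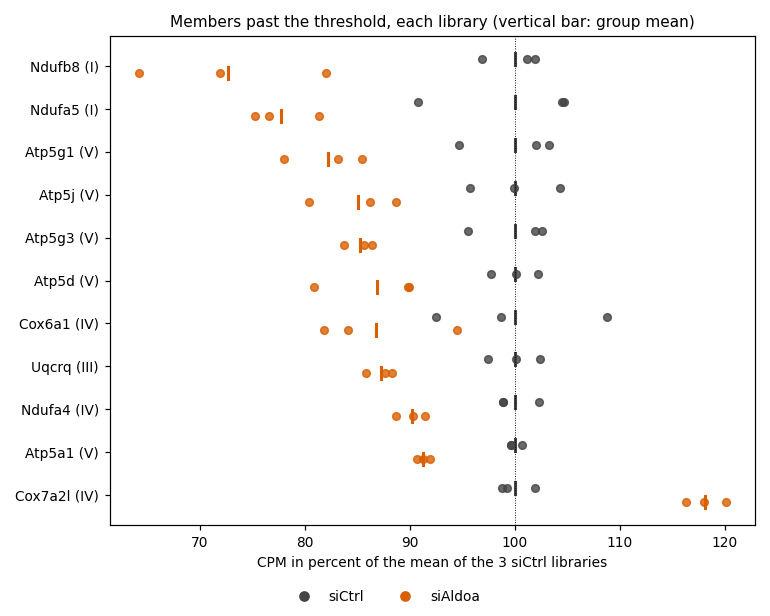
Each point is 1 library of siCtrl (grey) or siAldoa (orange), plotted as CPM in percent of the siCtrl mean of that gene, and bars mark group means, for the 11 called genes. The groups are separate for all but Cox6a1, and Cox7a2l is the only gene whose siAldoa libraries lie to the right.

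In complex I both called decreases were in accessory subunits, which surround the catalytic core. Of the 34 genes of complex I most are accessory, with 9 in the matrix arm and 18 in the membrane arm, and 7 are core. Ndufb8, an accessory subunit of the membrane arm, was measured at 32.3, 32.6 and 31.0 CPM in siCtrl and at 20.5, 23.0 and 26.2 CPM in siAldoa. All siAldoa libraries lay below the controls, and with 72.7% of control Ndufb8 had the largest called decrease of the system (log2 fold change -0.45, SE 0.11, limma adjusted p = 0.005). It was called without any single library but not without replicate 1, 2 or 3 of both groups (adjusted p up to 0.14). Its exons share 134 bases with the predicted gene Gm20538 on the same strand. Ndufa5, an accessory subunit of the module that reduces coenzyme Q, was measured at 53.7, 61.8 and 61.9 CPM in siCtrl and at 44.5, 48.1 and 45.3 CPM in siAldoa. The groups did not overlap, and it fell to 77.7% of control (log2 fold change -0.35, SE 0.08, limma adjusted p = 0.003). Without replicates 2 or 3 of both groups it was not called (adjusted p up to 0.15).

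The 7 nuclear core subunits of the matrix arm, which carry the flavin and the iron-sulphur clusters, included no called gene. With 10.0% of all genes called lower, 7 genes without a call are not far from the background. For 2 of the 7 (28.6%) all siAldoa libraries lay below all controls, against 17.1% of all genes and 23.8% of those with at least 10 CPM. Ndufv1, which binds NADH and the flavin, was at 154 CPM in siCtrl and 145 CPM in siAldoa, and Ndufv2, its iron-sulphur partner, at 92.1 and 82.7 CPM. For both the groups did not overlap, with log2 fold changes of -0.09 and -0.15 (limma adjusted p = 0.23 and 0.08). Ndufs1, the largest core subunit, differed by -0.03, and Ndufs8, an iron-sulphur subunit, by -0.10, with overlapping groups. Ndufs7, another iron-sulphur subunit, differed by 0.06 and Ndufs3 by 0.14, again with overlap. Taken over the 7 genes, the 95% intervals of the differences lay between -0.28 and 0.37. Changes within the interval of a gene remain compatible with its values. Over the 9 accessory genes of the matrix arm the median difference was -0.14, and over the 18 of the membrane arm -0.02. Between same-numbered libraries of replicates 1, 2 and 3 these medians were -0.05, -0.18 and 0.03 in the matrix arm. In the membrane arm they were -0.06, 0.02 and -0.04, so the sign varied in both arms. Ndufa1 at 124% and Ndufa6 at 119% of control had the highest fold changes of complex I and were not called (limma adjusted p = 0.16 and 0.10). Ndufa6 was called without siCtrl replicate 1, Ndufa9 without siAldoa replicate 1 and Ndufa7 without siAldoa replicate 3.

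In complex III none of the 4 core genes was called, and 1 of the 5 small subunits was lower (20%). Over all genes 10.0% were called lower, and 16.6% of those with at least 10 CPM. The core comprises Cyc1 (cytochrome c1), the Rieske iron-sulphur protein Uqcrfs1, and the core proteins Uqcrc1 and Uqcrc2. Their log2 fold changes were -0.10, 0.02, -0.09 and -0.02, with overlapping groups in each. Uqcrq, a small subunit without a redox centre, was measured at 130, 127 and 133 CPM in siCtrl and at 112, 114 and 115 CPM in siAldoa. It fell to 87.2% of control without overlap (log2 fold change -0.20, SE 0.05, limma adjusted p = 0.01). It was not called without siCtrl replicate 3 (adjusted p = 0.051) or by DESeq2 (adjusted p = 0.07). The other 4 small subunits ranged from -0.22 for Uqcr10 to -0.01 for Uqcrh. Cytochrome c itself was at 72.0, 62.9 and 81.2 CPM in siCtrl and 69.1, 68.2 and 66.2 CPM in siAldoa. These groups overlapped (log2 fold change -0.08, SE 0.08, limma adjusted p = 0.56).

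In complex IV 2 of the 10 common nuclear subunits were called lower (20%) and 1 relative of a subunit was called higher. The share of decreases was near the background, with 10.0% of all genes lower and 16.6% of those with at least 10 CPM. The common subunits had a median log2 fold change of -0.13, and their summed CPM was 1053, 1078 and 1111 in siCtrl and 1008, 1012 and 1001 in siAldoa, or 93.2% of control. Cox6a1, the widely expressed form of subunit 6a, was measured at 152, 142 and 167 CPM in siCtrl and at 126, 129 and 145 CPM in siAldoa. Its groups overlapped, and it was called at 86.8% of control (log2 fold change -0.20, SE 0.06, limma adjusted p = 0.02). Ndufa4, a subunit first assigned to complex I, was measured at 185, 178 and 178 CPM in siCtrl and at 163, 160 and 165 CPM in siAldoa. It was called at 90.2% of control without overlap (log2 fold change -0.15, SE 0.05, limma adjusted p = 0.03). These calls were the least stable: Cox6a1 lost its call without siCtrl replicate 1 or 3 or siAldoa replicate 1 or 2 (adjusted p up to 0.33 over the alternatives with libraries left out), and Ndufa4 without any single library except siAldoa replicate 3 (adjusted p up to 0.17). Cox5a and Cox5b, which surround the catalytic core, were at 87.7% and 85.4% of control without overlap and did not pass the threshold (limma adjusted p = 0.08 and 0.07). Cox5b was called without siAldoa replicate 1. The other common subunits, Cox6b1, Cox6c, Cox7b, Cox7c and Cox8a, had log2 fold changes from -0.13 to 0.01 and were not called.

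Cox7a2l was the only called increase. It encodes the supercomplex assembly factor SCAF1, a relative of subunit 7a that links complex III to complex IV. It was measured at 230, 228 and 236 CPM in siCtrl and at 273, 278 and 269 CPM in siAldoa. The groups were tight and far apart, at 118% of control (log2 fold change 0.24, SE 0.04, limma adjusted p = 0.00019), and the call held with each library and each replicate number left out. Its paralog Cox7a2, the common form of subunit 7a, was measured at 65.7, 75.8 and 81.2 CPM in siCtrl and at 67.7, 71.6 and 62.1 CPM in siAldoa, with overlapping groups and a log2 fold change of -0.14 (limma adjusted p = 0.25). The muscle form Cox7a1 did not exceed 0.79 CPM in any library, and Cox4i2, the form known from lung and low oxygen, and the testis form Cox7b2 did not exceed 1.64 and 2.67 CPM. At these levels a difference was not detectable. Cox6a2, Cox6b2, Cox8b, Cox8c and Ndufa4l2 were not analysed here.

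**Figure D3:**
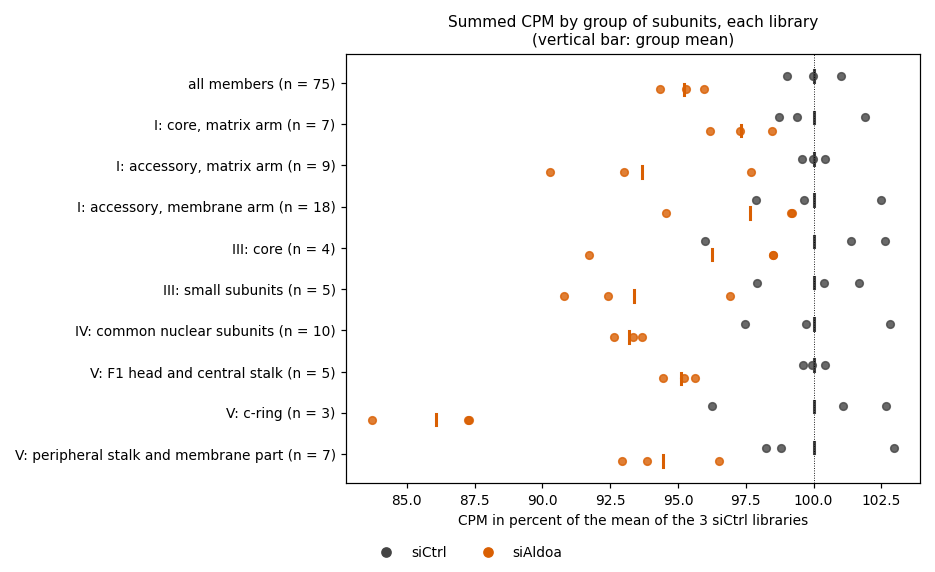
Each point is the summed CPM of a group of subunits in 1 library, in percent of the siCtrl mean of that group (grey siCtrl, orange siAldoa, bars group means). The c-ring lies farthest to the left at 86.1% of control, and the groups overlap for the core of complex III and the membrane arm of complex I.

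Levels were compared between genes as CPM per kb of transcript in siCtrl. The median was 51.0 for complex I, 130 for complex III, 152 for complex IV and 129 for complex V, over 73 genes, without Cox4i2 and Cox7a1, which had a mean under 1 CPM. Atp5b was the highest with 860, followed by Atp5g3 with 446, Uqcrh with 419 and Ndufa4 with 392. Within complex I, Ndufb9 was the highest with 156. Genes with copies may be misstated on this scale, since the assignment of reads with several matching places is not given.

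Many subunit genes have near-identical copies, and reads were counted on both. Near-identical copies, defined by at least 95% identity over at least 100 bases of coding sequence, were annotated for 24 of the 75 genes, and for 18 genes a copy had a row in the table. In 9 of these the copies held more reads than the gene. Atp5o, which encodes the OSCP subunit, was at 15.5 CPM in siCtrl and its copy at 113 CPM, so that the row of the gene held 12.1% of the sum. The corresponding shares were 26.1% for Atp5l, 32.5% for Atp5g2, 36.9% for Atp5h, 41.4% for Cycs, 41.6% for Cox5b and 44.4% for Atp5g1. How reads with several matching places were assigned is not given in the sources used here, so levels and differences of these genes are uncertain. Before summing, 10.0% of all genes were called lower and 10.4% higher, and these shares were not taken again after it. When reads of copies and gene were summed, 11 of the 75 genes were lower and 1 was higher. Among them, Atp5g1 was at 207 ± 7.14 CPM in siCtrl and 176 ± 1.71 CPM in siAldoa (SD, n = 3; log2 fold change -0.23, limma adjusted p = 0.0007), and Cox7a2l at 280 ± 5.63 and 336 ± 5.25 CPM (log2 fold change 0.26). Uqcrb, a small subunit of complex III, gained a call (-0.23, limma adjusted p = 0.04). Summing moved no log2 fold change by more than 0.09. Among the 51 genes without a copy 9 were called lower (17.6%, against 10.0% of all genes and 16.6% of those with at least 10 CPM) and none higher by limma, with 19 at an unadjusted p-value under 0.05.

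**Figure D4:**
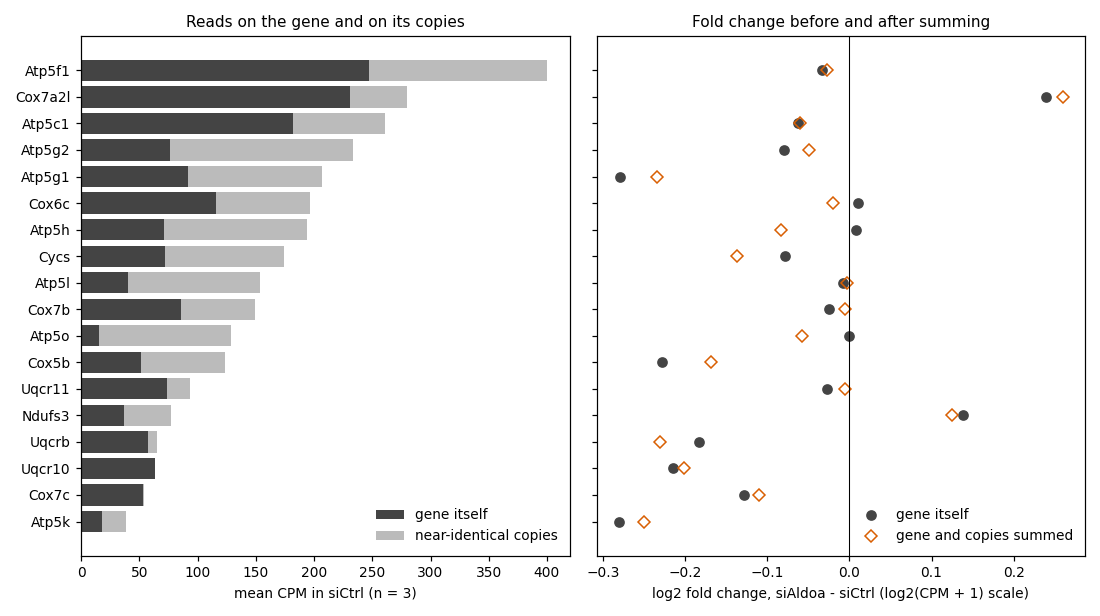
Left, mean CPM in siCtrl of the gene itself (dark) and of its near-identical copies (light) for the 18 genes with a copy in the table. Right, log2 fold changes (siAldoa minus siCtrl) of the gene alone (points) and after summing (diamonds), which stay within 0.09 of each other.

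The surrounding machinery was read from further lists. None of the 4 subunits of complex II, which feeds electrons from succinate into coenzyme Q, was called by limma, with 2 at an unadjusted p-value under 0.05 and log2 fold changes from -0.13 for Sdhc to 0.17 for Sdhb. Of the 11 genes of coenzyme Q synthesis 3 were called lower (27.3%, against 10.0% of all genes and 16.6% of those with at least 10 CPM). For 5 of the 11 (45.5%) the siAldoa libraries lay below all controls, against 17.1% of all genes and 23.8% of those with at least 10 CPM. Pdss1 and Pdss2 encode the enzyme that makes the isoprenoid tail, and Coq2 the enzyme that joins it to the ring. Pdss2 was measured at 162, 156 and 169 CPM in siCtrl and at 142, 135 and 147 CPM in siAldoa (log2 fold change -0.20, SE 0.05, limma adjusted p = 0.008). Pdss1 was at 80.0% and Coq2 at 84.2% of control (limma adjusted p = 0.02 for each), and neither was called by DESeq2 (adjusted p = 0.12 and 0.11). All 3 lost the call without siCtrl replicate 3 or siAldoa replicate 2, and Pdss1 also without siCtrl replicate 1 or 2 or siAldoa replicate 3, with adjusted p up to 0.25 over the alternatives with libraries left out.

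The shares of assembly genes called lower were 8.33% for complex I, 16.7% for complex III, 5.88% for complex IV and 25% for complex V. Over all genes 10.0% were lower, and 16.6% of those with at least 10 CPM. In complex IV 5.88% were called higher, against 10.4% of all genes. With 4 to 17 genes per list these shares are coarse. In complex I 1 of 12 was called, Acad9, which fell to 80.9% of control (limma adjusted p = 0.009) and lost its call without siCtrl replicate 2 (adjusted p = 0.07) or siAldoa replicate 2 (adjusted p = 0.06). In complex III 1 of 6 was called, Uqcc1, which was measured at 61.4, 57.2 and 67.2 CPM in siCtrl and at 44.3, 46.8 and 49.7 CPM in siAldoa. Its groups did not overlap (log2 fold change -0.39, SE 0.08, limma adjusted p = 0.001). Without replicates 1 or 3 of both groups Uqcc1 was not called (limma adjusted p up to 0.09). In complex IV 1 of 17 was lower, the insertase Cox18 at 79.3% of control (limma adjusted p = 0.02), and 1 was higher, Higd1a at 125% (limma adjusted p = 0.04). Cox18 lost its call without siCtrl replicate 2 or 3 or siAldoa replicate 3 (adjusted p = 0.08, 0.07 and 0.10). Acad9, Cox18 and Higd1a were not called by DESeq2 (adjusted p = 0.07, 0.13 and 0.16). Higd1a lost its call without any single library except siAldoa replicate 3, with adjusted p up to 0.40. Of the 4 genes for assembly and inhibition of complex V, Atpif1 was called. It encodes the inhibitor of ATP hydrolysis by the complex and was measured at 75.6, 72.5 and 67.5 CPM in siCtrl and at 53.4, 51.6 and 52.1 CPM in siAldoa. It fell to 72.9% of control without overlap (log2 fold change -0.45, SE 0.07, limma adjusted p = 7.2e-05), and its call held under each of the 19 alternatives.

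The carriers that exchange ATP, ADP and phosphate differed in direction. Slc25a4, an ADP/ATP carrier, was measured at 461, 461 and 467 CPM in siCtrl and at 389, 397 and 399 CPM in siAldoa. It fell to 85.3% of control without overlap (log2 fold change -0.23, SE 0.04, limma adjusted p = 5.1e-05), and the difference was -0.14 under quantile normalization. Its paralog Slc25a5 was at 273 and 252 CPM and not called (limma adjusted p = 0.09). Slc25a3, the phosphate carrier, was at 924 ± 25.9 CPM in siCtrl and 986 ± 28.1 CPM in siAldoa (SD, n = 3) and was called at 107% of control (limma adjusted p = 0.048), with a log2 fold change of 0.09 that became 0.16 under quantile normalization. It lost the call without any single library except siAldoa replicate 3, with adjusted p up to 0.43.

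Of 12 regulators of respiratory genes 2 were called lower and 2 higher (16.7% each, against 16.6% and 15.9% of genes with at least 10 CPM). Esrra, an orphan nuclear receptor that activates respiratory genes, was measured at 39.7, 36.1 and 36.2 CPM in siCtrl and at 60.7, 54.3 and 56.3 CPM in siAldoa. It rose to 153% of control (log2 fold change 0.60, SE 0.08, limma adjusted p = 1.1e-05). Polrmt, the mitochondrial RNA polymerase, was measured at 33.96, 36.9 and 33.6 CPM in siCtrl and at 54.5, 43.3 and 52.4 CPM in siAldoa, and rose to 144% (log2 fold change 0.51, SE 0.10, limma adjusted p = 0.0004). Without replicates 1 or 3 of both groups Polrmt was not called (limma adjusted p up to 0.14). Tfam, which packages mitochondrial DNA and starts its transcription, was measured at 92.9, 82.9 and 78.0 CPM in siCtrl and at 69.9, 72.4 and 66.2 CPM in siAldoa. It fell to 82.2% of control (log2 fold change -0.28, SE 0.07, limma adjusted p = 0.007), and the call was lost without siCtrl replicate 1 or siAldoa replicate 3 (adjusted p up to 0.16 with libraries left out). Gabpa, the DNA-binding part of GABP, was called at 88.9% of control (limma adjusted p = 0.04) but under none of the alternatives that left out a library (adjusted p up to 0.35) and not by DESeq2 (adjusted p = 0.13). Its exons overlap those of Atp5j on the opposite strand. Nrf1 and Yy1, whose motif letters were counted above, had log2 fold changes of -0.06 and 0.02 and were not called, and Ppargc1a was at 0.63 and 1.77 CPM (limma adjusted p = 0.06).

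**Figure D5:**
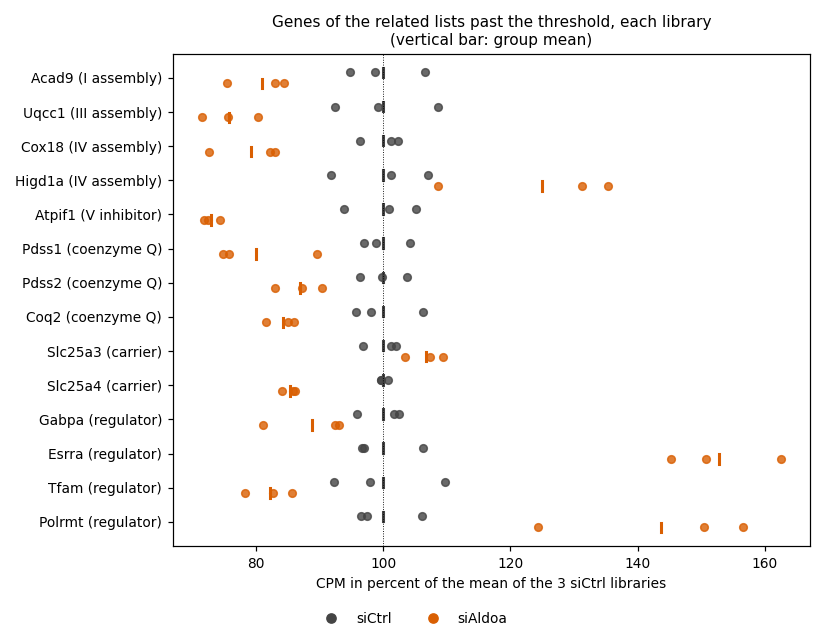
Each point is 1 library of siCtrl (grey) or siAldoa (orange) for the 14 called genes of assembly, coenzyme Q synthesis, carriers and regulators, as CPM in percent of the siCtrl mean of that gene, with bars for group means. Esrra and Polrmt lie farthest to the right at 153% and 144%, and Atpif1 farthest to the left at 72.9% of control.

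The calls depended on the variance model and on the number of libraries. When limma was run without the mean-variance trend none of the 75 genes was called, with 11 at an unadjusted p-value under 0.05. DESeq2 called 6 genes lower and 1 higher, and edgeR 10 and 1. With 2 libraries per group, Atp5g1, Ndufa5 and Cox7a2l remained called without replicate 1, Atp5g3 and Cox7a2l without replicate 2, and Atp5a1 and Cox7a2l without replicate 3.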

How the data were processed

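Poly(A) RNA-sequencing of 3 siCtrl and 3 siAldoa libraries was used, grouped by their labels. The authors aligned reads to mm10 with Bowtie2 2.2.7, per the labels and methods, drew equal numbers of reads at random from each sample, counted genes with GenomicAlignments in R and deposited CPM. The stated minimum of 12 reads was not met by 1834 genes of the table. Subsampling equalizes depth and limits the precision for weak genes. The annotation used for counting, its use of strand and its treatment of reads with several matching places are not given in the sources used here. A deposited edgeR comparison (fold changes and p-values of the authors) was not used.

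CPM were tested with limma 3.58.1 (R 4.3.3) on log2(CPM + 1), with the variance trended on the mean, two-sided, with Benjamini-Hochberg adjustment over 18001 genes. An exact permutation test of 3 against 3 libraries cannot go below p = 0.1 and was not used for calls. Whole reads were recovered from the smallest step of CPM in each library. 100% of values came out whole (tolerance 0.001 reads), and edgeR 4.0.16 and DESeq2 1.42.0 were run on them as alternatives. The tests were also run on simulated counts with planted changes larger than those called among the subunit genes. Changes of the size reported here were not checked in this way. Identifiers were matched to GENCODE M21 of GRCm38 (17932 of 18001, and all 75 subunit genes). CPM per kb used the median length of protein-coding transcripts. Copies were searched with blastn 2.17.0.

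The subunit genes, the lists and the promoter motifs were chosen with earlier results of these data known. Genes were named if called, if in the catalytic core, if in an isoform family, and if called in a further list (up to 8 per list); further genes were named after their values were seen. Alternatives were another pseudocount (0.1 CPM), a filter on weak genes, other scalings and tests, the replicate block, and libraries left out. Summing of copies, leaving out genes with copies and keeping numbered -ps symbols were added after seeing the data. The values of 1 subunit gene are counted in the totals and are not reported here.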

Additional observations from a re-analysis of the deposited data

How the results depend on the processing

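Lower and higher calls over all genes numbered 1809 and 1867 with limma, 616 and 824 without the mean-variance trend, and 1117 and 1066 with DESeq2. Among the 75 subunit genes, 10 and 1 became 0 and 0 without the trend (11 at an unadjusted p-value under 0.05), and DESeq2 called 6 lower (11 unadjusted), without Atp5j, Cox6a1, Ndufa4 and Uqcrq. On recovered reads edgeR called 1866 and 1920 genes overall and the same 11 subunit genes. Quantile normalization lost Atp5a1, Cox6a1 and Ndufa4. The median of complex IV was -0.13 with the filter on weak genes. Without copies no gene was higher (0; 19 at an unadjusted p-value under 0.05) and the median of complex V was -0.16. Beyond the smaller sets of genes tested, the cause was not tested.

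With libraries left out, calls over all genes ranged from 520 to 1371 lower and from 494 to 1464 higher, and subunit genes from 1 to 11 lower and from 1 to 2 higher. The lowest counts came without replicate 2 or 3 of both groups. Without siCtrl replicate 3, 6 subunit genes were lower. The medians ranged from -0.09 to -0.04 for all 75 genes, from -0.06 to -0.02 for complex I, from -0.13 to -0.05 for complex III, from -0.11 to -0.023 for complex IV and from -0.14 to -0.03 for complex V. No called gene changed sign. Among named genes that were not called, Atp5b changed sign under quantile normalization, Cox4i2 in edgeR, DESeq2 and with libraries left out, and Cox6b1, Cox7a1, Cycs, Ndufs1, Ndufs3, Ndufs7, Uqcrc2 and Uqcrfs1 with libraries left out. Keeping the pseudogenes with a number after -ps left the counts at 10 and 1.

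With the replicate block, limma called 1559 genes lower and 1611 higher and the same 11 subunit genes, while Gabpa, Higd1a, Slc25a3 and Krt8 were lost (adjusted p = 0.08, 0.09, 0.10 and 0.10). The pairing rests on shared replicate numbers alone: deviations of same-numbered libraries correlated with 0.03, 0.01 and 0.13 over 10059 genes, and only the libraries of replicate 3 correlated best with their own number. At 3692341 to 3771129 reads a library, genes at a few CPM, such as Cox4i2 and Cox7b2, cannot show moderate changes.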
